A study of Mus musculus with 18 samples.

Results

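Stable lamin B1 and H3K9me3 windows are the 10 kb windows of the 19 mouse autosomes that lay inside a called lamin B1 domain and inside a called H3K9me3 region in both young and old livers. Of 246285 windows, 4674 met this rule, which is 1.9% (46.74 Mb), and adjacent windows formed 546 runs. The windows were selected on those 4 lists, so their lamin B1 and H3K9me3 states are a description and carry no test. ChIP-Seq for lamin B1, H3K9me3 and H3K9me2 was performed on livers of male C57BL/6 mice, and the young mice were 3 months and the old mice 21 months of age, with duplicate samples for every antibody at each age. Foxa2 was profiled at 12 weeks in livers of male Zmpste24 KO mice and of their wild-type littermates, with 3 replicates per genotype. The Zmpste24 KO mice are constitutive nulls for the protease that matures prelamin A. Replicates were merged before calling, so each condition is 1 list of positions without signal, score or read count, and no spread between mice can be given and the lists themselves carry no depth. Whole liver was used, so hepatocytes cannot be told apart from the other liver cells, and H3K9me2 was not analysed here. The Foxa2 mice were different animals from the young and old mice, and no Foxa2 list of old livers was used here.

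Lamin B1 is a filament protein of the meshwork under the inner nuclear membrane, and the chromatin it contacts forms large lamina-associated domains that are mostly silent. H3K9me3 is the histone mark of constitutive heterochromatin, read by HP1 proteins, and it covers satellite repeats, transposable elements and clusters of zinc finger genes. Foxa2 is a winged-helix pioneer factor of the liver that can bind its site on nucleosomal DNA.

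Sequences are given for Foxa2 sites called in both genotypes inside the windows. The lamin B1 and H3K9me3 calls at these positions came from other mice. Leaving out windows made of multi-copy sequence, 53 wild-type sites in the stable windows overlapped a Zmpste24 KO site. In 15 of these 53 sites, the forkhead core TGTTTAC was found on either strand within 250 bp of the midpoint of the wild-type site. Around 13 of these cores the printed bases lay outside annotated exons. The first 8 in genome order are printed from GRCm38.p6 as 101 bases around the core closest to the midpoint. They are written 5′ to 3′ on the strand that reads TGTTTAC, with the core in capitals. Each is named for the gene with the closest protein-coding start, which need not be the gene that holds the site.
Fhl2, chr1:43305431-43305531, plus strand: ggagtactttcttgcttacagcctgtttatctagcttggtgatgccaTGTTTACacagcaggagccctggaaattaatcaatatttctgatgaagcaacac
Proser2, chr2:6072137-6072237, plus strand: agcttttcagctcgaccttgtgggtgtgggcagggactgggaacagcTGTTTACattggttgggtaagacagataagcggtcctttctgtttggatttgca
Sars, chr3:108477065-108477165, plus strand: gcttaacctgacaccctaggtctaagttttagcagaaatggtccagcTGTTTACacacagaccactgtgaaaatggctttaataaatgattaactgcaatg
Mapk10, chr5:103291382-103291482, plus strand: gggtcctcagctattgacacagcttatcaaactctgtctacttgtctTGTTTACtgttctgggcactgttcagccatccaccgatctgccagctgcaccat
Katnal1, chr5:148741399-148741499, plus strand: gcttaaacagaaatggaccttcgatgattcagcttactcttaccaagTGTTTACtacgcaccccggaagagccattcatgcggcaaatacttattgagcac
Gm42791, chr5:148969112-148969212, plus strand: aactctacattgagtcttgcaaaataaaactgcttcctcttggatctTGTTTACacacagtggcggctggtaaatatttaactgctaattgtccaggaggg
Tenm3, chr8:48688420-48688520, plus strand: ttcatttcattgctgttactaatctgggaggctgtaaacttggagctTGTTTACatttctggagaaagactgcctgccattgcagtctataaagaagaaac
Pmfbp1, chr8:108993842-108993942, plus strand: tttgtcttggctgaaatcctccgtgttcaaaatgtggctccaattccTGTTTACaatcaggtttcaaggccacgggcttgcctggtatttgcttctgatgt
The midpoints of the sites named for Sars, Gm42791 and Tenm3 fell in an intron of a protein-coding gene, and those of the other five lay outside protein-coding genes, 58.0 to 500.1 kb from the closest protein-coding start. Across the autosomes, 7.39% of 500-base tiles without gaps hold this word on either strand. A match is a description of the sequence and does not show which base was bound.

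The median called region was 200 kb long for young and 340 kb for old lamin B1, and 150 and 160 kb for young and old H3K9me3. Over all called regions, with or without a member, the members made up 10.03% of the windows in young lamin B1 domains and 5.02% of those in old domains, and 8.12% and 7.58% of the windows in young and old H3K9me3 regions. Of the lamin B1 domains, 439 of 1621 in young and 373 of 1517 in old livers held at least 1 member window. The same held for 480 of 2781 young and 472 of 2492 old H3K9me3 regions. H3K9me3 was present at both ages in 14.1% of the windows with lamin B1 at both ages and in 6.31% of those with lamin B1 at neither age. In windows with lamin B1 in old livers only it was 16.6%, and with lamin B1 in young livers only 10.2%. The windows with lamin B1 at both ages more often carried H3K9me3 in old livers only (21.6%) than in young livers only (5.36%). The old-only share was also larger in windows with lamin B1 in old livers only (34.6% against 2.98%). The young-only share was larger with lamin B1 at neither age (19.7% against 6.62%) and with lamin B1 in young livers only (25.4% against 4.34%). The study lists more pooled reads for H3K9me3 in old than in young livers and fewer for lamin B1, and the part of depth in these shares was not tested.

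The median run was 70 kb long, with quartiles of 40 and 110 kb, and the range reached from 10 to 530 kb. Single windows made up 41 runs, whereas the 40 runs of at least 200 kb held 22.1% of all member windows. Neighbouring runs lay a median of 1350 kb apart, and 95 of 527 gaps were at most 100 kb. Chromosome 10 held 617 members, or 4.72% of its windows, followed by chromosome 17 with 3.22% and chromosome 8 with 3.21%. The lowest shares were on chromosome 19, where 19 windows in 4 runs made up 0.309%, and on chromosome 7 with 0.866%. Young H3K9me3 regions covered 42.2% of the windows of chromosome 10, 39.4% of chromosome 3, where 1.94% were members, 25.4% of chromosome 8, 24.1% of chromosome 17 and 3.32% of chromosome 19.

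**Figure D1:**
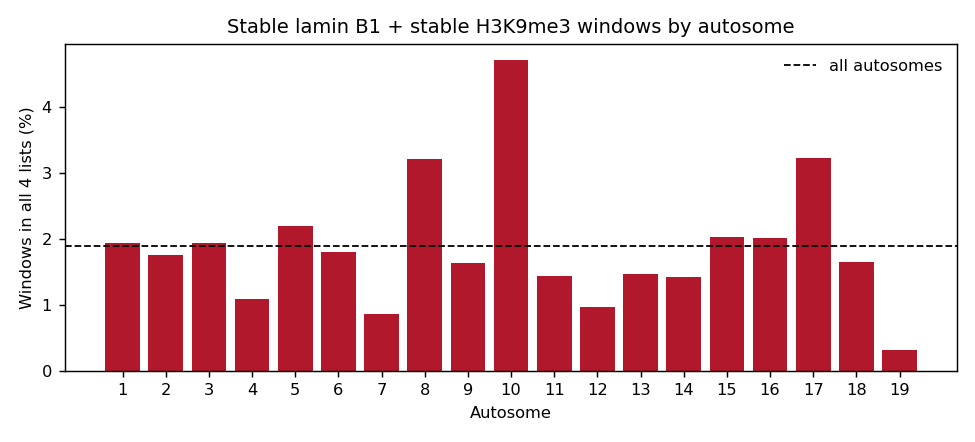
Bars give the share of the 10 kb windows of each autosome that lay in all 4 lists (%), and the dashed line is the share over all autosomes (1.9%). Chromosome 10 stands highest at 4.72% and chromosome 19 lowest at 0.309%.

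The 1092 run ends were set unequally by the lists. The young H3K9me3 region ended at 482 of them (44.1%), the old H3K9me3 region at 375 (34.3%), the young lamin B1 domain at 374 (34.2%) and the old lamin B1 domain at 145 (13.3%). More than 1 list ended at 213 (19.5%). In the first window outside a run, 87.2% of windows still lay in an old lamin B1 domain, 66.1% in a young domain, 66.02% in an old and 56.2% in a young H3K9me3 region. At 95 kb outside, these shares were 79.0%, 58.0%, 51.1% and 38.2%. Run ends thus coincided most often with the end of a young H3K9me3 region and least often with that of an old lamin B1 domain. By the rule a run ends where any list ends, so lists of shorter regions can end more runs. The median region was 150 kb for young and 160 kb for old H3K9me3. It was 200 kb for young and 340 kb for old lamin B1, so the shorter regions had the more frequent ends. Whether the ends differ from what region length alone would give was not tested.

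**Figure D2:**
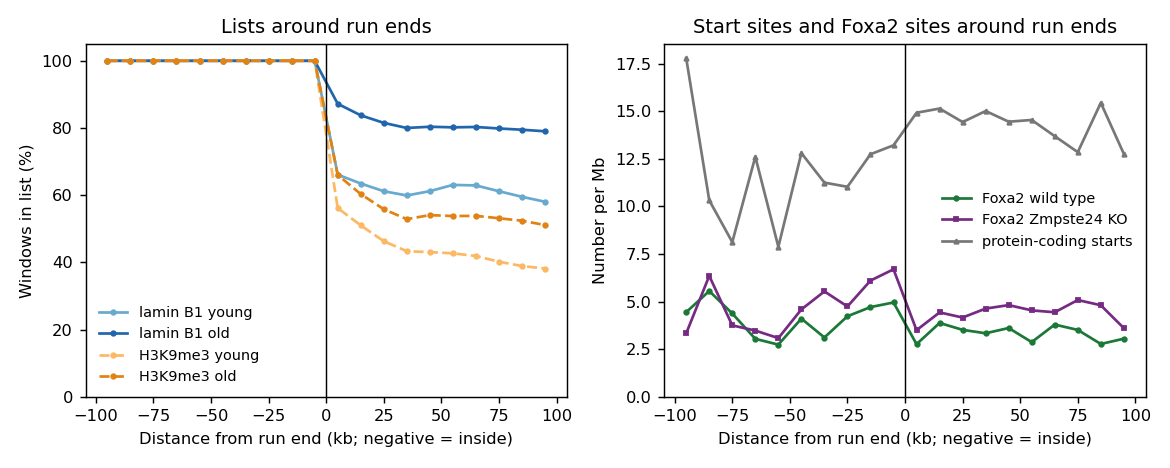
The left panel gives the share of 10 kb windows in each of the 4 lists (%) against the distance from a run end (kb, negative inside), and the right panel gives protein-coding start sites and Foxa2 sites per Mb on the same axis. Inside a run the shares are 100% by the rule, and outside it old lamin B1 falls least, to 87.2% in the first window.

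Genes were present in the windows, but less densely than in stable lamin B1 windows with H3K9me3 at neither age. Stable lamin B1 windows with H3K9me3 in old livers only (7167) or in young livers only (1780) were not compared. Protein-coding start sites occurred 11.4 times per Mb in the members, 23.8 times per Mb in the 19571 windows with lamin B1 at both ages and H3K9me3 at neither age (lamin B1-only windows), and 4.22 times per Mb in the 8404 windows with H3K9me3 at both ages and lamin B1 at neither age (H3K9me3-only windows). All autosomal windows other than the members, apart from those in assembly gaps, had 8.63 per Mb. The density in members was below that in lamin B1-only windows on 17 of 18 autosomes, with a median difference of -11.2 per Mb (exact two-sided sign test over autosomes, adjusted p = 0.00029). It was above that in H3K9me3-only windows on 17 of 18 autosomes, by a median of 7.26 per Mb (exact sign test, adjusted p = 0.00029). When the H3K9me3-only windows of each autosome were weighted to the GC content of the members, that difference was 1.26 per Mb, with members higher on 11 of 18 autosomes (exact sign test, adjusted p = 0.52). Chromosome 19 had too few members for these tests, and since the autosomes come from the same merged livers, the p-values describe positions in these lists and not variation between mice.

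Bodies of protein-coding genes covered 49.4% of the member bases, 67.5% in lamin B1-only and 28.5% in H3K9me3-only windows, and 41.2% in all autosomal windows other than the members. The members were lower than lamin B1-only windows on 18 of 18 autosomes (median difference -18.3 percentage points; exact sign test, adjusted p = 2.7e-05) and higher than H3K9me3-only windows on 14 of 18 (median 21.5 points; exact sign test, adjusted p = 0.043). Without chromosome 10 the latter difference was 23.6 points, with members higher on 13 of 17 autosomes (exact sign test, adjusted p = 0.069). The midpoint-to-start distance followed the same order, with medians of 36.2 kb in members, 16.3 kb in lamin B1-only and 138 kb in H3K9me3-only windows.

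In base composition the members stood apart from H3K9me3-only windows. GC content was 45.1% in members, 45.5% in lamin B1-only and 40.7% in H3K9me3-only windows, and 41.9% in all other windows. Members exceeded H3K9me3-only windows on 18 of 18 autosomes (median 4.39 points; exact sign test, adjusted p = 2.7e-05), whereas they were higher than lamin B1-only windows on 8 of 18 (median -0.16 points; exact sign test, adjusted p = 0.81), a difference not resolved by this test. The observed over expected ratio of CpG dinucleotides was 0.245, 0.238 and 0.179 in the same order, higher than in H3K9me3-only windows on 18 of 18 autosomes (exact sign test, adjusted p = 2.7e-05) and higher than in lamin B1-only windows on 12 of 18 (exact sign test, adjusted p = 0.26). Repeat-masked bases made up 28.5% of the members, 29.3% of lamin B1-only and 34.7% of H3K9me3-only windows, and 33.6% of all other windows. They were fewer than in H3K9me3-only windows on 18 of 18 autosomes (median -6.53 points; exact sign test, adjusted p = 2.7e-05), and fewer than in lamin B1-only windows on 13 of 18 (exact sign test, adjusted p = 0.12).

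**Figure D3:**
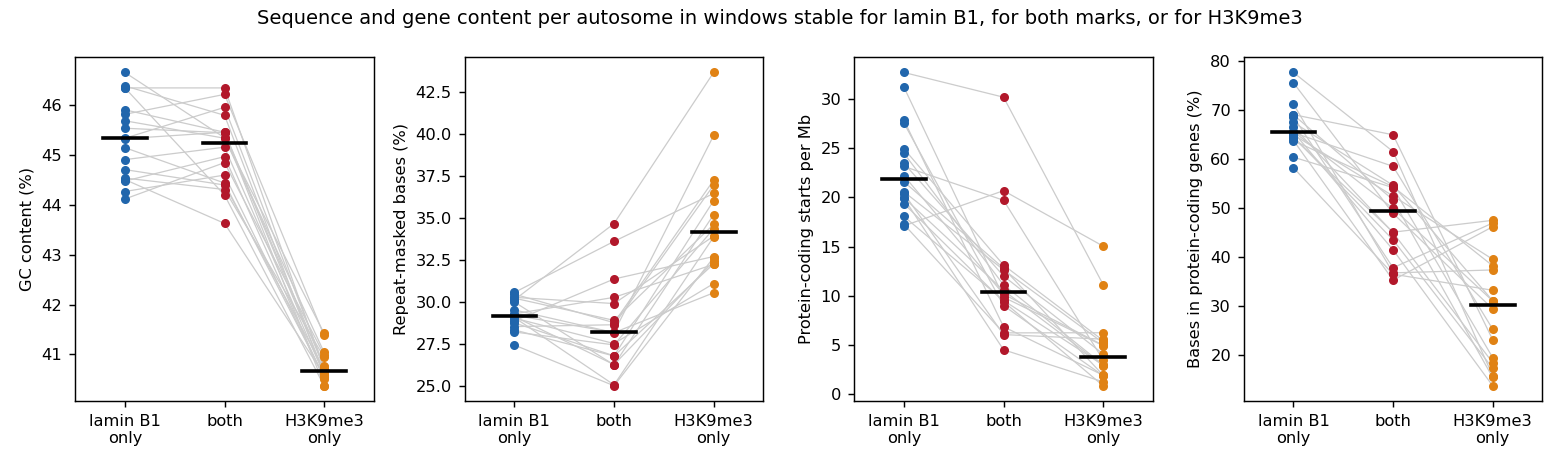
Each point is 1 autosome, grey lines join the same autosome, and black bars are medians over 18 autosomes, for windows stable for lamin B1 only, for both marks and for H3K9me3 only. From left to right the panels show GC content (%), repeat-masked bases (%), protein-coding starts per Mb and bases in protein-coding genes (%). GC content of windows stable for both lies near that of lamin B1-only windows (45.1% against 45.5% over all windows), while start sites lie between the other classes.

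The runs differed among themselves by length. Runs of 10 to 40 kb had 17.1 protein-coding starts per Mb (66 starts) and 36.1% of their bases in gene bodies. These starts include Gm10722, Gm11168 and other Gm genes of the single run chr9:3000001-3040000, which had 94.55% masked bases. Runs of 200 kb or more had 6.30 starts per Mb, with 50.7% of bases in gene bodies. GC content varied little over the length classes, from 44.8% to 45.2%, and the repeat-masked share was 31.03% in the shortest and 25.9% in the longest class. These values describe the classes and were not tested.

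The 15 longest runs held the starts of 25 protein-coding genes. The longest, chr14:118170001-118700000, held the start of Sox21, a transcription factor of neural progenitors, and 97.2% of Abcc4, an efflux transporter. The next, chr8:48100001-48520000, held no protein-coding start, and 69.6% of its length was Tenm3, a teneurin that guides neuronal wiring, with Dctd, a deoxycytidylate deaminase, at its border. Over all runs 462 of the 616 kb of Tenm3 (75.02%) lay in member windows, the largest stretch of any protein-coding gene. On chromosome 10, the run chr10:121740001-122130000 contained all of Srgap1, a GTPase-activating protein of Slit-Robo signalling, and Rxylt1, a glycosyltransferase acting on dystroglycan. The run chr10:70890001-71230000 contained all of Bicc1, an RNA-binding protein, and chr10:69980001-70290000 contained Ccdc6, a coiled-coil protein, the monocarboxylate transporter family member Slc16a9 and Mrln, the muscle micropeptide that restrains the calcium pump SERCA.

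The run chr2:71510001-71800000 held Dlx1 and Dlx2, homeobox factors of the forebrain and jaw, and the start of the laminin receptor subunit Itga6. The run chr13:55740001-56000000 held Pitx1, a homeobox factor of the hindlimb, with the sperm calcium channel gene Catsper3. The start of Kit, the receptor for stem cell factor, lay in chr5:75340001-75630000. Tspan5, a tetraspanin, lay in chr3:138650001-138940000, and Prickle1, a planar cell polarity gene, in chr15:93490001-93770000. The run chr1:39640001-39960000 held the starts of Creg2, Rfx8, Gm3646 and the kinase gene Map4k4, and chr6:140160001-140470000 that of Plekha5. The run chr1:183060001-183320000 held Disp1, whose product releases Hedgehog ligands from cells, together with Aida and Brox. The run chr11:113270001-113540000 lay wholly inside the zinc transporter gene Slc39a11 and held no start.

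Promoters of these genes covered a wide range of CpG content. Of 25 protein-coding genes that start in the 15 longest runs, 20 matched the RefSeq promoter table (GRCm38), with 2 to 50 CpG dinucleotides in the 250 bases before the start. A CpG-rich set of 3 and a CpG-poor promoter, all without overlap to an annotated exon, are printed 5′ to 3′ on the strand of the gene, with each CG in capitals, to show that both kinds lay in the longest runs.
Srgap1, chr10:122047316-122047565, minus strand: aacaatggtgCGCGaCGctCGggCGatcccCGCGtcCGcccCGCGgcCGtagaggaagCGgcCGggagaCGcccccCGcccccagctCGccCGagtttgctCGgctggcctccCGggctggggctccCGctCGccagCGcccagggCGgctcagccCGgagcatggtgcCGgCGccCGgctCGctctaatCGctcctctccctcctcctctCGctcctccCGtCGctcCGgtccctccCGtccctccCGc
Dlx2, chr2:71546755-71547004, minus strand: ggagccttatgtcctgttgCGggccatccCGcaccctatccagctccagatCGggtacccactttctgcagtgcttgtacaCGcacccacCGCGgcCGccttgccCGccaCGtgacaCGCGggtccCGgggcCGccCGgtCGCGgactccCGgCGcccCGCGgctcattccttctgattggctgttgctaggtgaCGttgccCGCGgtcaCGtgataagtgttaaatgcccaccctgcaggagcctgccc
Prickle1, chr15:93595903-93596152, minus strand: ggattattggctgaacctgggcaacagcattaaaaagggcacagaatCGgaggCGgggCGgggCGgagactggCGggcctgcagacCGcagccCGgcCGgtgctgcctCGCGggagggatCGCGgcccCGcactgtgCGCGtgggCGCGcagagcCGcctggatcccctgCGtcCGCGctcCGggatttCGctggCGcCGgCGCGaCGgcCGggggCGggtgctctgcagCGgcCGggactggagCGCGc
Mrln, chr10:70204414-70204663, plus strand: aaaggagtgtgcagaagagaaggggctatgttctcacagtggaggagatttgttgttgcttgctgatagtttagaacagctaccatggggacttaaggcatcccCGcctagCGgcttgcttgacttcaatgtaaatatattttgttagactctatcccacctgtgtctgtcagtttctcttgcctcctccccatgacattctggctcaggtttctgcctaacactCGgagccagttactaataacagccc
Srgap1 had 35, Dlx2 24, Prickle1 34 and Mrln 3 CpG in these bases. Over all 531 member genes the median was 10 CpG (quartiles 5 and 18), read from the genome before each GENCODE start. It was 13 for the 4655 genes in lamin B1-only windows, 5 for the 355 in H3K9me3-only windows and 8 for all 20807 autosomal genes. At least 1 CG was present in 97.4% of member promoters and 92.6% of all promoters. The forkhead core TGTTTAC, on either strand, was present in 11 member promoters (2.07%) and in 2.67% of all promoters.

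Start sites of 531 of 20807 protein-coding genes (2.55%) lay in member windows, 338 genes lay wholly in them, and 255 of the 546 runs held no protein-coding start. This 2.55% is the background for the gene lists, which were counted without a test. C2H2 zinc finger genes, many of which encode KRAB repressors of transposable elements, had 55 of 471 starts (11.7%) in 28 runs. A single run, chr7:29760001-29970000, held 8 of them: Zfp84, Zfp30, Zfp790, Zfp940, Zfp420, Zfp27, Zfp383 and Zfp74. The run chr9:20440001-20680000 held Zfp26, Zfp426, Zfp266 and Zfp846. The first of the list in genome order were Zfp341 on chromosome 2, Zfp981, Zfp982, Zfp985, Zfp984 and Zfp933 on chromosome 4. Of the other genes of this list, 74 (15.7%) started in lamin B1-only windows, which hold 22.4% of all protein-coding starts, and 51 (10.8%) in H3K9me3-only windows, which hold 1.71%. Within the domains that the study drew as shared, the members were chr4:147230001-147260000, chr4:147390001-147610000 with Zfp982, Gm16503 and Zfp985, chr4:147770001-147850000 with Zfp984 and Zfp933, and chr8:71810001-71860000 without a protein-coding start. Leaving out windows of multi-copy sequence left 53 zinc finger genes, and leaving out the first and last window of each run left 43.

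Hox genes, the clustered homeobox genes that set body-axis identity, had 18 of 39 starts in member windows (46.2%), all in 2 runs. All 9 Hoxd genes, Hoxd13 to Hoxd1, lay in chr2:74630001-74770000. Another 9, all Hoxa genes, lay in chr6:52190001-52320000. None of 10 Hoxb and 9 Hoxc genes was a member. Hoxb6 to Hoxb9 had lamin B1 at both ages without H3K9me3, Hoxb3 to Hoxb5 and Hoxc4, Hoxc6 and Hoxc8 had lamin B1 at both ages and H3K9me3 in old livers only, and 6 Hoxc genes had both features in old livers only. Genes of a cluster share a run, so these counts rest on few independent positions.

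The clustered protocadherins, cell adhesion proteins that give neurons their surface identity, were divided along their locus on chromosome 18. All 21 Pcdhg genes started in the run chr18:37640001-37830000. All 22 Pcdhb and 12 of 14 Pcdha genes started in windows with H3K9me3 at both ages and lamin B1 at neither, and Pcdhac1 and Pcdhac2 lay in none of the 4 lists. Imprinted genes had 4 of 43 starts in members. Zim1, Peg3 and Usp29 shared the run chr7:6640001-6740000, and the amino acid transporter gene Slc38a4 lay on chromosome 15.

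Other regulators of development were counted with lists that were added after values were seen. Homeobox genes outside the Hox clusters had 17 of 145 starts in members (11.7%) in 16 runs, among them Pax3, Lhx4, Dlx1, Dlx2 and Evx2. Evx2 lay in the run of the Hoxd genes and Evx1 in that of the Hoxa genes, so these runs count in both lists. Sox genes had 3 of 18 (Sox13, Sox2 and Sox21), forkhead genes 3 of 41 (Foxd3, Foxi3 and Foxn3), T-box genes 1 of 16 (Tbx5), Wnt genes 1 of 19 (Wnt5b) and GATA genes 0 of 5.

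The short lists of hepatocyte function were near the 2.55% background. Of 28 hepatocyte transcription factor genes, only Rxrg, a retinoid X receptor, started in a member window, while 12 started in lamin B1-only windows, which hold 22.4% of all protein-coding starts. Lipid synthesis and storage genes had 0 of 31 starts in members and 8 in lamin B1-only windows, and cytosolic ribosomal protein genes had 0 of 86 and 30. Solute carriers were near the background with 9 of 372 (2.42%), among them Slc16a14, Slc9b2, Slc9b1, Slc7a10, Slc25a36 and Slc16a9. Cytochrome P450 genes had 1 of 98 (Cyp4f18), H3K9 methylation machinery genes 1 of 22 (Atf7ip), and keratin and keratin-associated genes 1 of 110 (Krtap12-1). Chemosensory genes were nearly absent, with 1 of 1117 olfactory receptors (Olfr718-ps1) and 0 of 326 vomeronasal receptors. They were also rare in lamin B1-only windows, with 10 and 0 starts, and H3K9me3-only windows held 31 and 17. No start was found among 67 histone, 22 UDP-glucuronosyltransferase, 60 serpin, 42 collagen, 64 defensin and 18 nuclear lamina genes.

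**Figure D4:**
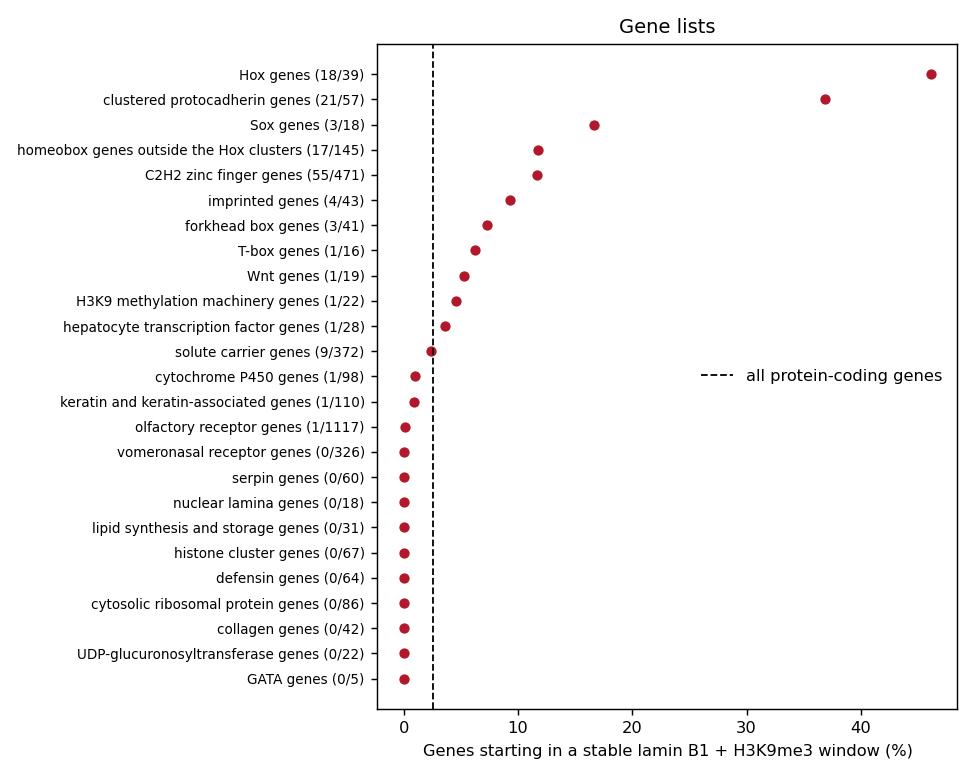
Points give the share of genes in each list that start in a stable lamin B1 and H3K9me3 window (%), with the number of genes beside the name, and the dashed line is the share over all protein-coding genes (2.55%). Hox genes (46.2%) and clustered protocadherins (36.8%) stand highest, and the genes of 1 cluster share 1 run.

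Foxa2 sites were assigned to windows by their midpoint. Wild-type livers had 198 sites and Zmpste24 KO livers 251 sites in the members, out of 4912 and 8051 autosomal sites. A wild-type site lay in 176 member windows (3.77%), where 1.91% of all autosomal windows held one, and a Zmpste24 KO site in 224 (4.79%), where 3.16% of all windows held one. Both genotypes had a site in 65 windows. At the level of runs, 117 held a wild-type site, 149 a Zmpste24 KO site, 66 both and 346 (63.4%) neither.

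Foxa2 sites were denser in the members than in H3K9me3-only windows in either genotype. Wild-type sites occurred 4.24 times per Mb in members and 1.15 times per Mb in H3K9me3-only windows, with members higher on 15 of 18 autosomes (median difference 2.40 per Mb; exact sign test, adjusted p = 0.013). For Zmpste24 KO sites the densities were 5.37 and 2.44 per Mb, with members higher on 17 of 18 autosomes (median 2.37; exact sign test, adjusted p = 0.00029). With the comparison weighted to the GC content of the members, the median differences were 2.63 for wild-type and 2.58 for Zmpste24 KO sites per Mb, and both adjusted p were 0.062 (exact sign test, members higher on 14 of 18 autosomes). Lamin B1-only windows held 4.96 wild-type sites per Mb, more than the members on 14 of 18 autosomes (median difference -1.07 per Mb; exact sign test, adjusted p = 0.043), a call that 4 of the alternative settings removed. For Zmpste24 KO sites they held 5.80 per Mb, more than the members on 12 of 18 autosomes (exact sign test, adjusted p = 0.26). Whether the members differed from either class by another amount in 1 genotype than in the other was not tested.

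**Figure D5:**
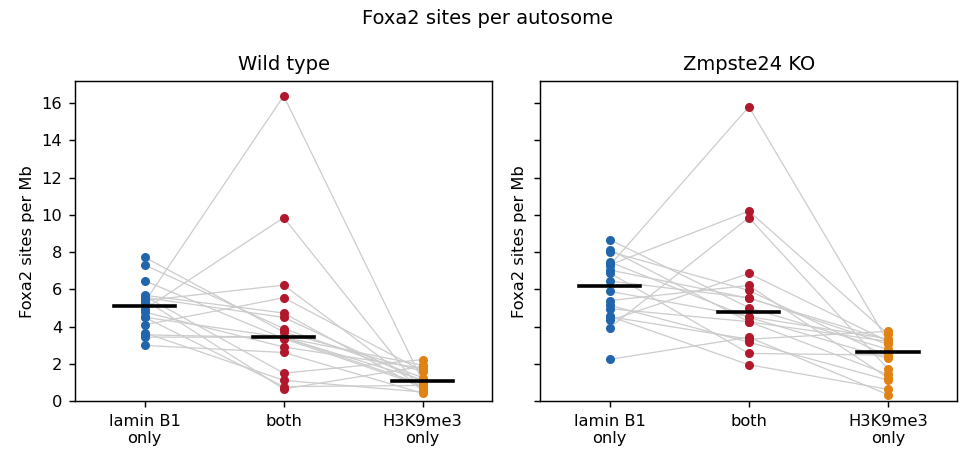
Each point is the number of Foxa2 sites per Mb on 1 autosome in windows stable for lamin B1 only, for both marks or for H3K9me3 only, grey lines join the same autosome and black bars are medians over 18 autosomes, for wild type (left) and Zmpste24 KO (right). The highest point of the windows stable for both in either panel is chromosome 4, at 16.4 wild-type and 15.8 Zmpste24 KO sites per Mb.

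Part of these sites lay in sequence present in many copies. In 115 member windows (2.46%), over 50% of sampled 31-base words occurred more than once in the assembly, and these windows held 30 of the 198 wild-type and 30 of the 251 Zmpste24 KO sites. The run chr9:3000001-3040000, with 94.5% masked bases, held 13 sites of each genotype. Without these windows the density was 3.69 wild-type and 4.85 Zmpste24 KO sites per Mb. On chromosome 9 it dropped from 9.85 to 3.54 per Mb in each genotype, and on chromosome 4 it went from 16.4 to 12.3 wild-type and from 15.8 to 14.5 Zmpste24 KO sites per Mb. Other runs with many sites were chr4:147390001-147610000, among the zinc finger genes, with 8 wild-type and 9 Zmpste24 KO sites, and chr4:3050001-3090000 with 6 of each. How multi-copy sequence affected the calls was not tested. The run of Disp1 held 8 wild-type and 5 Zmpste24 KO sites, of which none was shared. Its share of repeated words was 7.20%, against 47.3% in chr4:147390001-147610000 and 38.25% in chr4:3050001-3090000.

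Of the wild-type sites in members, 72 (36.4%, 95% Wilson interval 30.0 to 43.3%) overlapped a Zmpste24 KO site by at least 1 base, compared with 30.6% (27.8 to 33.6%) in lamin B1-only, 14.4% (8.80 to 22.8%) in H3K9me3-only and 27.3% in all autosomal windows. Without the multi-copy windows the share in members was 31.5% (53 of 168 sites). The forkhead core occurred within 250 bp of the midpoint in 14.1% of wild-type sites in members (interval 9.97 to 19.7%), in 23.2% (20.6 to 25.9%) in lamin B1-only windows and in 19.5% of all autosomal sites. Outside multi-copy windows it was 16.7% (11.8 to 23.0%) in members, an interval that overlaps that of lamin B1-only windows. For Zmpste24 KO sites it was 12.7% (9.18 to 17.4%) in members and 21.0% (18.8 to 23.5%) in lamin B1-only windows, and outside multi-copy windows 14.03% (10.1 to 19.2%) and 21.1% (18.9 to 23.6%). The intervals cover counting error only, and these shares were not tested. The word itself occurred 0.145 times per kb in members, 0.140 times in lamin B1-only windows (members higher on 8 of 18 autosomes) and 0.166 times in H3K9me3-only windows (members higher on 1 of 18).

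Most Foxa2 sites in the members were distal. Position was not compared with that of Foxa2 sites elsewhere, so it is not shown to be particular to the members. Among wild-type sites 108 lay outside protein-coding genes, 70 in introns and 20 in exons, and among Zmpste24 KO sites 131, 101 and 19. The median distance to the closest protein-coding start was 25.3 kb for wild-type and 34.7 kb for Zmpste24 KO sites, and 41 and 46 sites lay within 5 kb. In genome order, the first genes with the protein-coding start closest to a site of both genotypes were Vwa3b, Fhl2, Frmd4a, Proser2, Polr3k, Sars, Vmn1r2 and Vmn1r3. The last pair lay at distances of 49.8 to 116 kb. Near run ends the density of wild-type sites was 4.95 per Mb in the last window inside and 2.76 in the first window outside, and it varied between windows on either side, with 3.88 per Mb at 15 kb outside and 3.11 at 35 kb inside. Short runs of 10 to 40 kb had 10.1 wild-type sites per Mb and runs of 50 kb or more 3.65 to 3.88, and 13 of the 39 wild-type sites in short runs came from the run chr9:3000001-3040000.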

How the data were processed

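Lamin B1 and H3K9me3 lists of young and old livers and Foxa2 lists of both genotypes, 6 in all, were used as deposited. Per the study's methods, the authors mapped reads to mm10 with BWA, discarded duplicate and non-unique alignments, and pooled the replicates. Lamin B1 domains were called with Epic, an implementation of SICER, and Foxa2 sites with PeakSeq against input after the KO reads had been thinned to wild-type depth. The caller of the H3K9me3 regions is not given in the sources used here, their age is known from the list name, and the lists hold fewer regions than the study counts, so members rest on the deposited lists alone. The lists hold positions alone, with no depth per region, and samples were grouped by the labels.

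The members and gene lists were chosen with earlier results of these data known. A window of 10000 bases was a member when it lay in a region of each of the 4 lists. Genes came from GENCODE vM21 and sequence and soft-masking from GRCm38.p6. Comparison windows with over 5000 N bases were left out. Repeated words were 31-mers sampled every 100 bases. Differences between members and a comparison class were taken on each autosome with at least 20 windows of both, and their signs were tested with an exact two-sided sign test, with Benjamini-Hochberg adjustment over 14 tests. Values printed beside a test are pooled over windows, and differences are medians over autosomes. Named genes were the protein-coding genes that start in the 15 longest runs (or cover most of a run without a start). Up to 6 genes per gene list were named in genome order. Also named were the genes with the start closest to the first 8 Foxa2 sites of both genotypes and those in domains the study drew. Others were named after their values were seen. Some genes that the rule names are not reported here. Alternatives covered run length, interior windows, chromosome 10, gaps, the minimum per autosome, the gene set, site overlap, GC content and, added after seeing the data, repeated sequence. The sign test was tested on simulated data. Tools were Python 3.11.15 with pandas 2.3.3, scipy 1.17.1, matplotlib 3.10.9 and numpy 2.4.6.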

Additional observations from a re-analysis of the deposited data

How the results depend on the processing

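Under 9 alternative settings, 85 of 96 repeated tests kept their direction and their side of the threshold, and no difference reversed. The settings for gaps and for the minimum per autosome changed no window and no autosome. Their repeats, counted among the 85, equal the main tests and could not differ. The lower density of wild-type Foxa2 sites than in lamin B1-only windows (median difference per Mb over autosomes) lost its call with interior windows only (-1.71), without chromosome 10 (-1.06), with sites assigned by any overlap (-0.56) and with the comparison weighted to the GC content of the members (-1.05). Against H3K9me3-only windows, the GC-weighted comparison ended the call for start sites (1.26 per Mb), wild-type Foxa2 sites (2.63) and Zmpste24 KO Foxa2 sites (2.58), and the gene body share lost its call without chromosome 10 (23.6 points). With runs of at least 50 kb, the lower repeat-masked share (-1.58 points) and the lower Zmpste24 KO density (-1.60 per Mb) relative to lamin B1-only windows passed the threshold, and without multi-copy windows the masked share did so too (-1.57). The causes were not tested. The number of runs was 390 at a minimum of 50 kb and remained 546 when runs separated by 1 window were joined, since no such gap occurred. The number of members was 4674 when each window had to lie wholly in each region. This count could not change, because the regions follow the same 10 kb grid as the windows. No paired analysis was possible because the lists merge the replicates. For the same reason no replicate could be left out, and lists without scores allow no stricter threshold.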

Other observations

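The rule covered autosomes alone. On the X chromosome 3 windows, chrX:169970001-170000000, lay in all 4 lists, out of 8 windows in the young and 4 in the old lamin B1 list. On the Y chromosome 3 windows, chrY:90790001-90820000, lay in all 4 lists, out of 3 in each lamin B1 list. Both stretches lie near the chromosome ends that hold the pseudoautosomal region, the part shared by the sex chromosomes. Among other classes of genes, 186 of 5209 lincRNA genes (3.57%), 98 of 2913 antisense genes (3.36%) and 54 of 2054 miRNA genes (2.63%) started in member windows, next to 2.55% of protein-coding genes, and among the 16 classes with the most genes the share ranged from 0.894% of unprocessed pseudogenes (16 of 1789) to 4.12% of processed transcripts (31 of 753).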
